A study of Mus musculus with 6 samples.

Results

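ATF4 is the transcription factor through which mammalian cells answer amino acid shortage, endoplasmic reticulum stress and other insults that phosphorylate the translation factor eIF2. A small family of kinases senses those insults, translation falls in general while that of the Atf4 mRNA rises, and ATF4 then switches on genes for amino acid import, amino acid synthesis and tRNA charging, together with regulators that end or escalate the response. Serine synthesis, in which PHGDH, PSAT1 and PSPH turn a glycolytic intermediate into serine, and the mitochondrial enzyme SHMT2, which passes a carbon of serine to folate, are among the metabolic branches that ATF4 can drive. Dividing stem cells and neural precursors use that carbon for nucleotides, and the brain depends on its own serine synthesis.

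The genes described here are 10: the factors Atf4, Atf5 and Ddit3, the stress-response genes Trib3, Chac1 and Sesn2, the asparagine synthetase gene Asns, and the serine and one-carbon genes Phgdh, Psat1 and Shmt2. They were taken by gene name from tables that list 46517 gene IDs, and all 10 passed the filter that left 20232 genes for testing (at least 1 TPM in 2 libraries). TPM, the share of all transcripts after division by length, is a level per transcript length, so it can be compared between genes. Wild-type E14TG2a mouse embryonic stem cells, an untreated feeder-free line kept with serum and leukaemia inhibitory factor, were compared with neuronal progenitors (NPC) and with neurons (NC) derived from them by in vitro differentiation. RNA was sequenced from 2 biological replicates at each of the 3 stages (mESC, NPC, NC), 6 libraries in all. NC is not spelled out in the labels and is taken here as the terminally differentiated glutamatergic pyramidal neurons of the study design. The medium described for the stem cells contained glutamine and non-essential amino acids, and no amino acid restriction or stress agent is named for any stage.

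Depth was 1.57 to 2.27 Gb of aligned bases per library. Summed TPM of 6 pluripotency markers was 4311 and 4428 in mESC and 18.5 to 24.3 in the other 4 libraries, and summed TPM of 7 neuron markers was 92.2 to 124 in mESC, then 456 and 745 in the NPC libraries and 2952 and 2651 in the NC libraries. Among those, the glutamatergic transporter gene Slc17a6 was at 28.9 and 21.6 TPM in NC and under 1 TPM elsewhere. Slc17a7 was at 3.21 and 1.69 TPM in NC, which overlapped its 2.86 and 2.07 TPM in mESC, and it was under 1 TPM in NPC. NC libraries also held markers of other lineages: 7 fibroblast and smooth muscle markers summed to 873 and 1062 TPM, 6 radial glia markers to 1186 and 386 TPM, and 6 astrocyte markers to 233 and 81.2 TPM. Single genes carried much of the last sums. Fabp7 was at 792 TPM in NC replicate 1, while Pax6, Hes5 and Sox1 were lower in NC than in NPC, and Nes and Slc1a3 overlapped. Slc1a2 was at 75.4 TPM in NC replicate 2, where Gfap, Aqp4 and S100b were under 1 TPM. In bulk RNA, fewer cells of a type and less RNA per cell cannot be told apart. Nothing says that the replicates came from separate differentiations, so the tests measure the spread between these libraries.

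The DNA element most tied to ATF4 is the C/EBP-ATF response element, read here as TGATGNAA on either strand (TTNCATCA on the other). It was searched in RefSeq promoters of assembly GRCm38.p6, from 250 bases before to 50 after each start site. All 10 genes had an entry, 12 promoters in all, and 3 of the 12 held a match, those of Asns, Chac1 and Trib3, against 3.97% of the 32851 promoters in the table. These 3 are printed because they hold the match, and Phgdh, which had none, is printed beside them because it differed least across the 6 libraries. From the lowest to the highest library, Trib3, Chac1 and Asns ranged 22.2-fold, 5.47-fold and 4.46-fold in TPM, and Atf5 and Ddit3, with no match, 9.82-fold and 7.78-fold. Each runs 5′ to 3′ on the gene's strand from 250 bases before to 25 bases after the start site, with the match in capitals.
Asns, chr6:7693185-7693459, minus strand: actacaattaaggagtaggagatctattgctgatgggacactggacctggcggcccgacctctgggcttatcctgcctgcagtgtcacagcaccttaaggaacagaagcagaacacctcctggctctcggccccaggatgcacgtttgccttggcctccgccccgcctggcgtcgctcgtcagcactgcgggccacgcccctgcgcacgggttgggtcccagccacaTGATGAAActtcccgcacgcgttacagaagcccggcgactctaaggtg
Chac1, chr2:119350992-119351266, plus strand: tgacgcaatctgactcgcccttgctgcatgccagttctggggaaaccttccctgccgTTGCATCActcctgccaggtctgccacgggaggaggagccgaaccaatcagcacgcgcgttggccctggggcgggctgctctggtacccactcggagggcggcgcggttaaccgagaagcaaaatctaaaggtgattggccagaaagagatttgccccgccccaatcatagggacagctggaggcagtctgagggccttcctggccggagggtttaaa
Trib3, chr2:152344036-152344310, minus strand: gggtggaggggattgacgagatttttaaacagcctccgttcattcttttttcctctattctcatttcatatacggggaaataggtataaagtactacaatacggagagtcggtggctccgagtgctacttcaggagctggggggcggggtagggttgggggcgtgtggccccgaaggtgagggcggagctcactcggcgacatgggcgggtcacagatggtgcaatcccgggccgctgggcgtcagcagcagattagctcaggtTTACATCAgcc
Phgdh, chr3:98339945-98340219, minus strand: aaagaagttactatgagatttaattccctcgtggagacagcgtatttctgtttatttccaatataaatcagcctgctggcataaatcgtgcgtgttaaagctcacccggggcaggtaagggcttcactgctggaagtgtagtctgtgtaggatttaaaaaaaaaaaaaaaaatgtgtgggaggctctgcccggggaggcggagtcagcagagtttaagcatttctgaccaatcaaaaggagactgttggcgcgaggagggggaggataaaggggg
The Asns match began 23 bases before the start site and read TGATGAAA on the gene's own strand. The Chac1 match began 193 bases before the start, and its opposite strand read TGATGCAA. The Trib3 match began at base 15 of the transcript, and its opposite strand read TGATGTAA. Among the wider lists described below, the element was in the promoters of 5 of 9 genes with an entry in the aminoacyl-tRNA synthetase list (Aars, Gars, Iars, Tars and Yars), where 4.51% of all genes in the table had it. It was in 3 of 7 genes in the list of bZIP partners (Atf3, Jdp2 and Nupr1, a small stress-induced regulator counted with them). Also holding it were 4 of 12 amino acid transporters and enzymes and 3 of 10 other ATF4 targets. None of 14 serine and folate genes held it, and none of the genes of the remaining 6 lists. A match describes the letters only, and no binding was measured.

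The following ran through the 10 genes. From mESC to NPC, Asns and Trib3 fell. In NC, Atf5 and Ddit3 were above their mESC level while Asns was below it, so the 10 genes did not move as a block. And the 2 libraries of mESC and of NC differed from one another along most of the list, whereas the 2 NPC libraries were nearly equal. The plot of abundance by library shows every value.

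**Figure D1:**
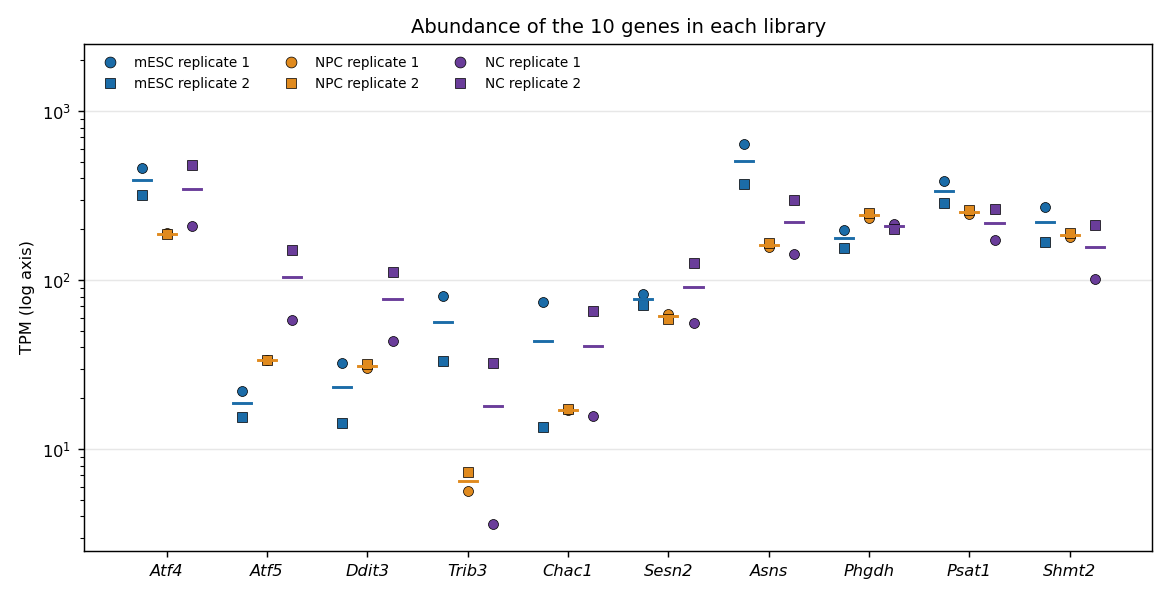
TPM (log axis) of the 10 genes in each of the 6 libraries; circles are replicate 1, squares replicate 2, colours are stages and short bars are stage means. The NPC points lie on top of each other for most genes, while Trib3 and Chac1 spread widely in mESC and NC.

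Atf4 (ENSMUSG00000042406.7, mm10 chr15:80255184-80257540, plus strand), the central factor, was at 462 and 318 TPM in mESC, at 189.9 and 187 TPM in NPC, and at 209 and 483 TPM in NC. Both NPC libraries lay below every mESC and NC library, but 1 NC library reached the mESC level and the other stayed near NPC. The log2 fold change of NPC against mESC was -1.02 (SE 0.38), which missed the threshold of 0.05 (limma adjusted p = 0.0755). It passed with median-of-ratios scaling (log2 fold change -1.26, limma adjusted p = 0.0295), with FPKM (limma adjusted p = 0.0491), with only mESC and NPC fitted (limma adjusted p = 0.0199) and with either NC library left out (limma adjusted p = 0.0203 and 0.0204). Without NC replicate 1, Atf4 was called higher in NC than in NPC (log2 1.36, limma adjusted p = 0.0352), and without NC replicate 2 it was called lower in NC than in mESC (log2 -0.88, limma adjusted p = 0.0431). ATF4 is governed largely at translation, which mRNA levels do not show.

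Atf5 (ENSMUSG00000038539.13, chr7:44812257-44816658, minus strand) encodes a factor related to ATF4, known for the mitochondrial stress response and for roles in neural precursors. It stood at 22.2 and 15.4 TPM in mESC, 33.9 and 33.7 TPM in NPC, and 58.3 and 152 TPM in NC. The 3 stages did not overlap, and the order was mESC, NPC, NC. Atf5 rose 4.87-fold in NC against mESC (log2 2.28, SE 0.42, limma adjusted p = 0.00397), the change with the lowest p among the 10 genes. This call was met under 16 of 17 alternative settings and was lost without mESC replicate 2 (limma adjusted p = 0.0610). The rise from NPC to NC (log2 1.45, SE 0.42, limma adjusted p = 0.0490) was met under only 4 of 17 alternatives, and without NC replicate 2 the log2 value was 0.77 (limma adjusted p = 0.117). It was also lost, at an unmoved size, without either mESC library (limma adjusted p = 0.116) and without NPC replicate 1 or 2 (limma adjusted p = 0.207 and 0.193). NPC against mESC had a log2 fold change of 0.83 (SE 0.42, limma adjusted p = 0.166), and it was called without NC replicate 1 or 2 (limma adjusted p = 0.0342 and 0.0358). Atf5 per unit of Atf4 was 0.0481 and 0.0485 in the mESC libraries, 0.179 and 0.181 in those of NPC, and 0.280 and 0.314 in those of NC, a ratio of TPM that differed little between the libraries of each stage. Exons of Il4i1 on the other strand cover 82 of the 1993 exon bases of Atf5; which strand setting the counting used is not stated in the labels.

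Ddit3 (ENSMUSG00000025408.14, chr10:127290774-127296288, plus strand) encodes CHOP, which is associated with the pro-death arm of prolonged stress. Its values were 32.4 and 14.3 TPM in mESC, 30.1 and 32.0 TPM in NPC, and 43.8 and 111 TPM in NC. The NC libraries lay above all others, and the NPC values fell within the mESC range. Ddit3 rose 3.13-fold in NC against mESC (log2 1.65, SE 0.50, limma adjusted p = 0.0275). Without NC replicate 2 the log2 value was 0.98 (limma adjusted p = 0.159), and without mESC replicate 2 it was 1.09 (limma adjusted p = 0.207). With either NPC library left out, which changes the shared spread alone, the limma adjusted p was 0.0562. The gene shares 68 of 1713 exon bases with Mars on the opposite strand, itself at 79.6 to 222 TPM.

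Trib3 (ENSMUSG00000032715.9, chr2:152337422-152344032, minus strand) encodes a pseudokinase that is induced by ATF4 and CHOP and feeds back on them. It was at 80.5 and 33.1 TPM in mESC, 5.62 and 7.33 TPM in NPC, and 3.63 and 32.5 TPM in NC. Both mESC libraries exceeded the other 4, and the NC pair spanned the NPC values. Trib3 fell by 2.83 on the log2 scale from mESC to NPC (SE 0.88, limma adjusted p = 0.0432), 7.10-fold lower. The call was lost when any 1 of the 4 mESC and NPC libraries was left out: without mESC replicate 1 the log2 value was -2.20 (limma adjusted p = 0.264), without mESC replicate 2 -3.46 (limma adjusted p = 0.128), without NPC replicate 1 -2.66 (limma adjusted p = 0.174) and without NPC replicate 2 -2.99 (limma adjusted p = 0.147). NC against mESC was -2.08 (SE 0.88, limma adjusted p = 0.0813), and without NC replicate 2 it was -3.51 (limma adjusted p = 0.00933).

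The ratio of Ddit3 to Trib3 in TPM covered a wide range. Ddit3 per unit of Trib3 was 0.403 and 0.432 in the mESC libraries, 5.35 and 4.36 in those of NPC, and 12.1 and 3.43 in NC. The mESC libraries lay below 1 and the other 4 above it. No test was made on ratios.

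Chac1 (ENSMUSG00000027313.3, chr2:119351229-119354381, plus strand) encodes an enzyme that degrades glutathione and is a sensitive ATF4 target. It stood at 74.2 and 13.6 TPM in mESC, 17.0 and 17.2 TPM in NPC, and 15.6 and 66.0 TPM in NC. One mESC library and 1 NC library were high, and the remaining 4 lay close together across all 3 stages. No contrast passed the test, and the 95% interval of NPC against mESC ran from -2.96 to 1.22 on the log2 scale.

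Sesn2 (ENSMUSG00000028893.8, chr4:132492032-132510501, minus strand) encodes a leucine sensor that restrains mTORC1. Its level was 83.2 and 71.3 TPM in mESC, 63.1 and 59.3 TPM in NPC, and 55.8 and 127 TPM in NC. The NC libraries lay on either side of all the others. No contrast passed. Without NC replicate 1, Sesn2 was called higher in NC against NPC (log2 1.04, limma adjusted p = 0.0260) and against mESC (log2 0.71, limma adjusted p = 0.0200).

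Asns (ENSMUSG00000029752.11, chr6:7675169-7693254, minus strand), which makes asparagine from aspartate and glutamine, was the most abundant of the 10 in mESC, with 641 and 369 TPM. It was at 156 and 167 TPM in NPC and at 144 and 299.9 TPM in NC. Both mESC libraries were above the other 4, and the NC pair again spanned NPC. Asns fell by 1.58 on the log2 scale in NPC against mESC (SE 0.38, limma adjusted p = 0.0177), 3.00-fold lower. In NC against mESC it fell by 1.22 (SE 0.38, limma adjusted p = 0.0306). The first call was met under 12 of 17 alternatives and was lost when any mESC or NPC library was left out (without mESC replicate 1, log2 -1.19 and limma adjusted p = 0.140; without mESC replicate 2, limma adjusted p = 0.0531; without NPC replicate 1, limma adjusted p = 0.0973; without NPC replicate 2, limma adjusted p = 0.0921). The second was met under 9 of 17; without NC replicate 1 it was -0.70 (limma adjusted p = 0.156), and without mESC replicate 1 it was -0.83 (limma adjusted p = 0.215). It was also lost, at an unmoved or larger size, without mESC replicate 2 (limma adjusted p = 0.0583) or either NPC replicate (limma adjusted p = 0.0617). Under quantile normalization it was -1.08 (limma adjusted p = 0.0678).

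Phgdh (ENSMUSG00000053398.10, chr3:98313170-98339990, minus strand), the first enzyme of serine synthesis, was the steadiest of the 10. It was at 199 and 154 TPM in mESC, 233 and 250.2 TPM in NPC, and 215 and 202 TPM in NC, so the highest library was 1.62-fold above the lowest. The stages did not overlap, with NPC highest. NPC against mESC had a log2 fold change of 0.46 (95% interval 0.08 to 0.84, limma adjusted p = 0.0592), and NC against NPC had -0.21 (95% interval -0.59 to 0.17, limma adjusted p = 0.368). With mESC replicate 1 left out, the difference of NPC from mESC was 0.64 (limma adjusted p = 0.0238), and that of NC from mESC was 0.43 (limma adjusted p = 0.0392).

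Phgdh has 19 annotated copies with at least 90% identity over 200 bases or more, so its value depends on how reads were divided among them. The pseudogene Gm7901 matched Phgdh at 98.7% over 1597 bases and was listed at 40.0 and 31.8 TPM in mESC, 44.7 and 52.8 TPM in NPC, and 40.4 and 33.9 TPM in NC. Added together, the pair gave 239 and 186 TPM in mESC, 278 and 303 TPM in NPC, and 255 and 236 TPM in NC. The sums kept the order of Phgdh across the 3 stages, except that NC replicate 2 then lay below mESC replicate 1. One copy was found at these limits for Psat1 and 1 for Shmt2, reaching 3.05 and 1.30 TPM at most, and none for the other 7 genes.

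Psat1 (ENSMUSG00000024640.8, chr19:15904678-15947337, minus strand) carries out the second step of the pathway. It was at 388 and 285 TPM in mESC, 245 and 262 TPM in NPC, and 172 and 264 TPM in NC. The mESC libraries were highest, and the NC pair spanned NPC. NC against mESC had a log2 fold change of -0.64 (SE 0.24, limma adjusted p = 0.0566). It passed with median-of-ratios scaling (-0.96, limma adjusted p = 0.00844), with FPKM (-0.91, limma adjusted p = 0.0125), and without NC replicate 2 (-0.95, limma adjusted p = 0.0251).

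The TPM ratios between the serine pathway genes differed between libraries, and these ratios were not tested. Psat1 per unit of Phgdh, as TPM, was 1.95 and 1.85 in the mESC libraries, 1.05 and 1.05 in those of NPC, and 0.802 and 1.30 in NC. Psph, the last enzyme of the pathway, was at 77.7 and 51.1 TPM in mESC, 45.5 and 43.1 TPM in NPC, and 37.4 and 55.1 TPM in NC, with no contrast past the test. Psph per unit of Phgdh was 0.390 and 0.331 in mESC and 0.172 to 0.273 in the other 4 libraries. In both ratios the mESC libraries lay above all others. Asns per unit of Phgdh was 3.21 and 2.39 in the mESC libraries, 0.671 and 0.667 in those of NPC, and 0.670 and 1.48 in NC.

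Shmt2 (ENSMUSG00000025403.4, chr10:127517123-127522444, minus strand), the mitochondrial serine hydroxymethyltransferase, was at 273 and 168 TPM in mESC, 179 and 191 TPM in NPC, and 102 and 211 TPM in NC. All stages overlapped and no contrast passed the test; the log2 fold change of NC against mESC was -0.54 (95% interval -1.42 to 0.33). Without NC replicate 2 it was -1.06 (limma adjusted p = 0.0455). Its cytosolic counterpart Shmt1 behaved otherwise. Shmt1 was at 189 and 197 TPM in mESC, 53.6 and 58.7 TPM in NPC, and 14.0 and 16.1 TPM in NC, and it fell in each step by 1.76 (SE 0.14, limma adjusted p = 0.000265) and 1.84 (SE 0.14, limma adjusted p = 0.00292) on the log2 scale. Shmt2 per unit of Shmt1 was 1.44 and 0.856 in the mESC libraries, 3.34 and 3.25 in those of NPC, and 7.29 and 13.1 in NC, with the stages apart.

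Other folate enzymes changed along the same course. In the wider list of 17 serine, glycine and folate genes, 3 rose and 7 fell from mESC to NPC. Of all tested genes, 26.0% were called higher and 14.0% lower there. From NPC to NC 2 of the list rose and 5 fell, beside 15.2% and 10.1% of all genes. From mESC to NC 4 rose and 9 fell, beside 37.8% and 22.1%. The list's median log2 fold change in the last contrast was -0.97, against 0.31 over all genes tested. The 2 mitochondrial genes with the largest rises were Mthfd2l and Aldh1l2. Mthfd2l, a dehydrogenase of the mitochondrial folate pathway, went from 2.47 and 3.39 TPM in mESC to 29.3 and 29.9 TPM in NPC and 44.2 and 45.5 TPM in NC (NPC against mESC log2 2.97, SE 0.19, limma adjusted p = 0.000123). Aldh1l2, which oxidises mitochondrial formyl-folate, went from 3.49 and 1.69 TPM to 6.30 and 7.41 TPM and then 47.0 and 57.9 TPM (NC against NPC log2 2.76, SE 0.30, limma adjusted p = 0.00348). Both genes were higher at each later stage in every library, with no overlap.

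Mthfd2, the related enzyme that ATF4 is known to induce, ran the other way, with 245 and 141 TPM in mESC, 76.2 and 59.4 TPM in NPC, and 39.3 and 119.7 TPM in NC. It fell by 1.42 on the log2 scale in NC against mESC (SE 0.51, limma adjusted p = 0.0491), and its NC libraries spanned NPC as those of Asns did. The most abundant genes of the list were Mat2a, which makes S-adenosylmethionine, Gcsh of the glycine cleavage system, and Mthfd2. Mat2a and Gcsh fell from mESC to NPC by 0.90 and 0.78 on the log2 scale (limma adjusted p = 0.00709 and 0.0171). The further enzymes Mthfd1l, Mthfd1 and Tyms were added to the plot of folate enzymes after their values were seen, to show both compartments.

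**Figure D2:**
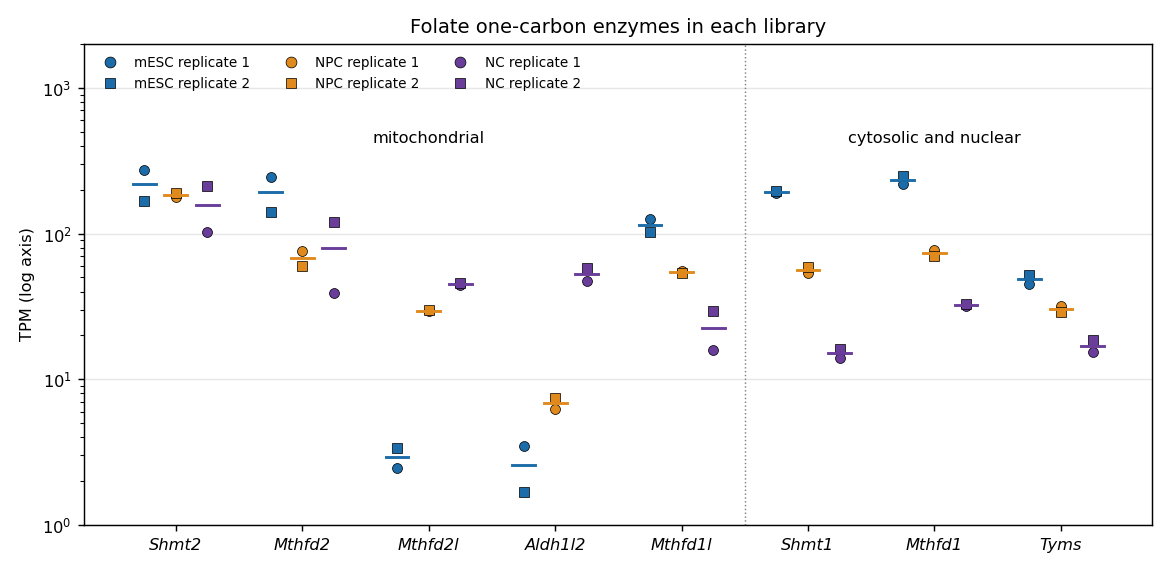
TPM (log axis) of mitochondrial enzymes (left of the dotted line) and of cytosolic and nuclear enzymes (right) of folate metabolism; symbols, colours and bars as in the plot of abundance by library. Shmt1 steps down from 189 and 197 TPM in mESC to 14.0 and 16.1 TPM in NC, while Mthfd2l and Aldh1l2 step up and the Shmt2 stages overlap.

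Over the 10 genes, NPC against mESC had 0 higher and 2 lower calls, where 26.0% of all tested genes were called higher and 14.0% lower. NC against NPC had 1 higher and 0 lower, against 15.2% and 10.1% of all genes. NC against mESC had 2 higher and 1 lower, against 37.8% and 22.1%. The 2 lower calls in NPC against mESC were near their background share, and the other counts were below theirs. At an unadjusted p under 0.05 limma counted 4, 1 and 4 of the 10, in either direction. Of all 20232 tested genes, 8100, 5123 and 12118 were called in either direction after adjustment, so at least as many passed unadjusted. The exact unadjusted share of all genes was not counted, so the unadjusted member counts have no matching background. Libraries of the 2 stages did not overlap for 7, 4 and 6 of the 10 genes in these contrasts, against 74.2%, 68.5% and 78.7% of all tested genes. The contrasts share libraries and are not independent of each other.

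Median log2 fold changes of the 10 were -0.36, 0.60 and -0.13, beside 0.18, 0.11 and 0.31 over all genes tested. These all-gene medians depend on the scaling: with quantile normalization they were -0.03, -0.02 and -0.05. The share of higher genes among all calls moved likewise, from 65.0% to 51.2% in NPC against mESC, from 60.1% to 47.7% in NC against NPC, and from 63.2% to 47.2% in NC against mESC.

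**Figure D3:**
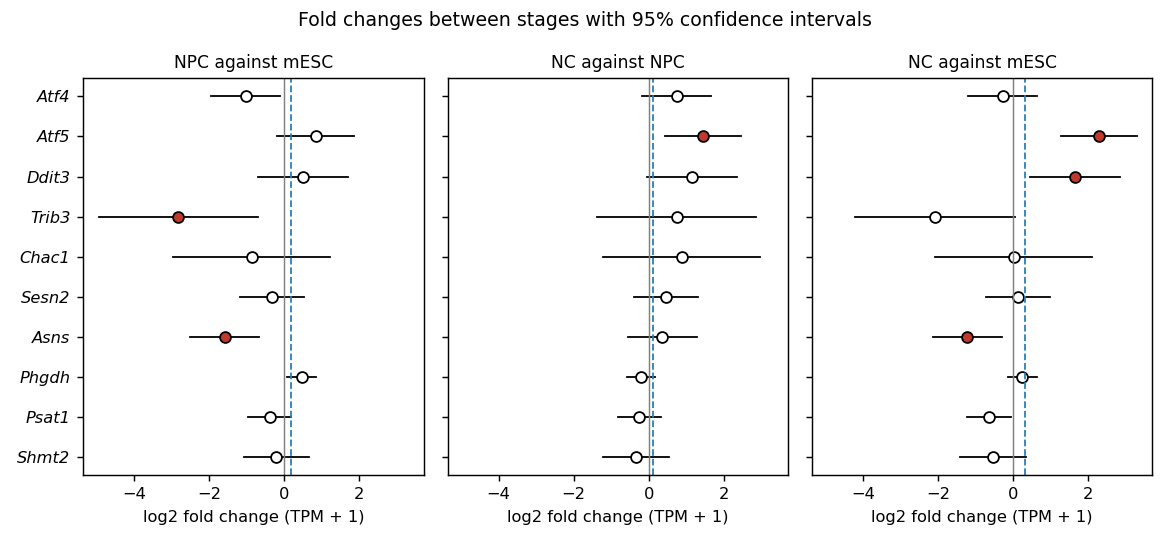
Log2 fold change (points) of log2(TPM + 1) with 95% confidence intervals from limma for the 10 genes in 3 contrasts; filled points have an adjusted p under 0.05, the dashed line is the median of all tested genes. Filled points are Trib3 and Asns (NPC against mESC), Atf5 (NC against NPC), and Atf5, Ddit3 and Asns (NC against mESC); the Trib3 and Chac1 intervals are the widest.

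In mESC, the order of mean TPM was led by Asns (505 ± 192, SD, n = 2), Atf4 (390.3 ± 102) and Psat1 (336 ± 72.7). Asns overlapped Atf4 and Atf4 overlapped Psat1, Psat1 lay apart from Shmt2, and Atf5 was lowest (18.8 ± 4.81). In NPC it was led by Psat1 (254 ± 11.8) and Phgdh (242 ± 12.2), which overlapped, and Trib3 was lowest (6.48 ± 1.21). There, most neighbours lay apart; the other pair that overlapped was Atf4 and Shmt2. In NC it was led by Atf4 (346 ± 194), with Trib3 lowest (18.1 ± 20.4), and every neighbouring pair overlapped.

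The libraries of a stage differed from each other for nearly all of the 10 genes in mESC and NC. In mESC, replicate 1 was above replicate 2 for 10 of 10 genes, with a median log2 difference of 0.61 against 0.05 over all 20232 tested genes. Of the 10, 3 (Ddit3, Trib3 and Chac1) were at least 2-fold higher in replicate 1 on the TPM + 1 scale, as were 4.38% of all genes (5.59% were 2-fold apart in either direction), and Chac1 differed 5.47-fold in TPM. In NC, replicate 2 was above replicate 1 for 9 of 10 genes, all but Phgdh, with a median of 1.19 against 0.02. Of the 10, 8 were at least 2-fold higher in replicate 2, as were 4.23% of all genes (8.60% in either direction); Trib3 differed 8.96-fold and Chac1 4.22-fold in TPM. In NPC, replicate 1 exceeded replicate 2 for 3 of 10 genes, none was 2-fold apart in either direction (3.37% of all genes were, 1.31% with replicate 1 higher), and the largest ratio of the 2 libraries was 1.30, for Trib3.

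Phgdh and Psat1 took the least part in this split among the metabolic genes. Phgdh differed 1.29-fold between the mESC libraries and 1.06-fold between the NC libraries, and Psat1 1.36-fold and 1.53-fold. Asns differed 1.73-fold and 2.09-fold, and Shmt2 1.62-fold and 2.07-fold. Summed over the 10 genes, mESC held 2255 and 1444 TPM, NPC 1154 and 1206 TPM, and NC 1018 and 1949 TPM. NC replicate 1 was thus nearest to NPC in this sum, and NC replicate 2 lay between the mESC libraries. With 2 libraries a stage, no test compares them within a stage.

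**Figure D4:**
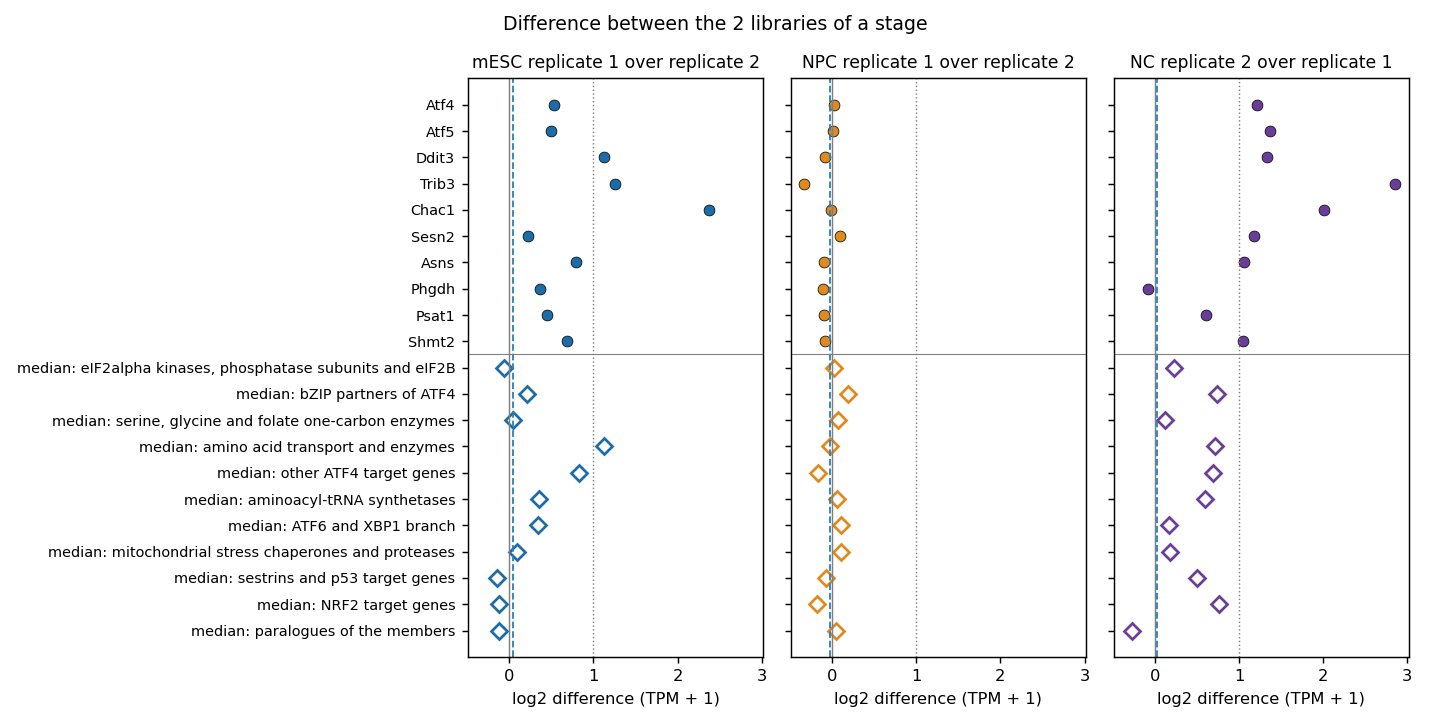
Difference of log2(TPM + 1) between the 2 libraries of each stage, for the 10 genes (filled circles) and as medians of the 11 wider lists (diamonds); the dashed line is the median of all tested genes and the dotted line is a 2-fold difference. The members lie right of 0 in mESC, in NC with Phgdh as the exception, and around 0 in NPC.

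Other measures also differed between these libraries, and their part in the split was not tested. In mESC, replicate 1 was the shallower library (1.57 against 2.27 Gb), its 6 endoderm markers summed to 92.2 TPM against 21.3 in replicate 2, its 7 fibroblast and smooth muscle markers to 124 against 80.7, and its 6 astrocyte markers to 43.6 against 20.8. In NC, replicate 2 was the deeper one (2.13 against 1.79 Gb), and its radial glia and astrocyte sums were the lower ones, at 386 and 81.2 TPM against 1186 and 233. The single markers did not all follow their sums: Aldh1l1 was at 59.3 TPM in NC replicate 1 and 1.89 TPM in replicate 2, but Slc1a2 was at 64.8 and 75.4 TPM, and the radial glia marker Nes at 84.2 and 119.8 TPM. The endoderm markers summed to 53.1 TPM in NC replicate 2 and 28.5 TPM in replicate 1, so this class was higher in the same library as the members in both stages. So were the fibroblast and smooth muscle sums (1062 against 873 TPM in NC), the oligodendrocyte sums and the microglia sums (0.151 against 0.0338 TPM in mESC). The endoderm sums were highest in NPC, at 184 and 124 TPM, where the libraries were nearly equal for the members. The 6 oligodendrocyte markers summed to 65.5 TPM in NC replicate 2 and 46.7 TPM in replicate 1 (in mESC 11.2 and 31.6 TPM), and 4 microglia markers to 3.23 and 1.21 TPM. The NC neuron sums were 2952 TPM in replicate 1 and 2651 TPM in replicate 2, and no marker gene of these lists was at 0 in all libraries.

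Amino acid transporters and enzymes showed the same split. Of 16 such genes tested, 15 were higher in mESC replicate 1 and 9 of them at least 2-fold. In NC, 15 were higher in replicate 2 and 6 at least 2-fold, while 7 were 2-fold apart in either direction. The exception was Cbs, at 21.0 TPM in NC replicate 1 and 0.930 TPM in replicate 2. None differed 2-fold in NPC. The 2 chains of the large neutral amino acid exchanger illustrate the split. Slc7a5 was at 462 and 164 TPM in mESC, 74.5 and 73.3 TPM in NPC, and 69.7 and 158 TPM in NC. Slc3a2 was at 460 and 191 TPM in mESC, 106 and 117 TPM in NPC, and 101 and 207 TPM in NC. Slc38a2, a glutamine and alanine carrier and the third of the most abundant, differed 1.36-fold and 1.61-fold between the libraries of mESC and NC.

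Between stages, 2 of these 16 genes rose and 4 fell from mESC to NPC, and 1 rose and 1 fell from NPC to NC. The shares of all tested genes were 26.0% and 14.0% in the first step and 15.2% and 10.1% in the second. Slc7a3, a cationic amino acid carrier, fell by 3.84 on the log2 scale from mESC to NPC (SE 0.52, limma adjusted p = 0.00186), and Slc7a5 fell by 1.88 (SE 0.54, limma adjusted p = 0.0315). The cystine carrier gene Slc7a11 rose in both steps, from 2.31 and 3.71 TPM to 9.59 and 14.0 TPM and then 38.1 and 38.8 TPM (NC against mESC log2 3.32, SE 0.27, limma adjusted p = 0.000144). Its NC libraries differed by 1.02-fold, and in mESC replicate 2 was the higher one.

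Aminoacyl-tRNA synthetases, which charge tRNAs and include many ATF4 targets, leaned the same way. The list also holds Xpot, a tRNA exportin, and all 13 of its genes were higher in mESC replicate 1 (median log2 0.35, 1 at least 2-fold) and in NC replicate 2 (median 0.59, 1 at least 2-fold). From mESC to NPC 3 of 13 fell and 0 rose, and from mESC to NC 6 fell, Xpot among them, and 0 rose. Of all tested genes, 14.0% fell and 26.0% rose in the first contrast, and 22.1% and 37.8% in the second. Gars was at 633 and 505 TPM in mESC, 309 and 290 TPM in NPC, and 273 and 441 TPM in NC. Aars fell by 1.25 on the log2 scale from mESC to NPC (SE 0.25, limma adjusted p = 0.00823), and Tars was lower in NC than in mESC (log2 -0.86, limma adjusted p = 0.0125). Sars, the serine enzyme, was at 268 and 153 TPM in mESC, 203 and 213 TPM in NPC, and 246 and 326 TPM in NC, with no contrast past the test.

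The other 11 ATF4 targets tested were mixed between stages. From mESC to NPC 3 rose and 2 fell, beside 26.0% and 14.0% of all tested genes. From NPC to NC 2 rose and 0 fell, beside 15.2% and 10.1%. From mESC to NC 3 rose and 2 fell, beside 37.8% and 22.1%. Eif4ebp1, a brake on cap-dependent translation and the most abundant of these targets in mESC, fell by 2.32 on the log2 scale from mESC to NPC (SE 0.42, limma adjusted p = 0.00596). Gdf15, a stress hormone, went from 13.4 and 7.11 TPM in mESC to 0.161 TPM in one NPC library and listed at 0 in the other, and fell by 3.33 on the log2(TPM + 1) scale (SE 0.47, limma adjusted p = 0.00212). Ddit4, which inhibits mTORC1, rose by a log2 of 2.13 (SE 0.51, limma adjusted p = 0.0174), and in NC it was the higher in replicate 1, at 164 against 70.3 TPM. Vldlr, a lipoprotein and reelin receptor, rose between mESC and NC (log2 3.03, SE 0.81, limma adjusted p = 0.0170), with 8.68 and 0.477 TPM in mESC. Sqstm1, an autophagy receptor, rose from NPC to NC (log2 1.11, SE 0.17, limma adjusted p = 0.00793), and Nars was at 130 to 332 TPM with no contrast past the test.

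Upstream, of the 12 kinase, phosphatase and eIF2B genes, 5 were higher in mESC replicate 1, 9 were higher in NC replicate 2, and none differed 2-fold within a stage. Eif2ak4, the sensor of uncharged tRNA (GCN2), rose from 20.1 and 17.3 TPM in mESC to 34.4 and 36.8 TPM in NPC (log2 0.90, SE 0.16, limma adjusted p = 0.00552). Eif2ak3, the endoplasmic reticulum kinase PERK, rose from 24.0 and 21.2 TPM in NPC to 41.4 and 58.6 TPM in NC (log2 1.09, SE 0.26, limma adjusted p = 0.0252). Ppp1r15a, the stress-induced phosphatase subunit that ends the response, was at 39.0 and 36.1 TPM in mESC, 24.2 and 24.6 TPM in NPC, and 22.7 and 44.5 TPM in NC, with no contrast past the test. Its constitutive relative Ppp1r15b, Eif2b2 and Eif2b5 were the most abundant of the list. Eif2s1, the phosphorylated subunit itself, was lower in NC than in mESC (log2 -1.12, SE 0.18, limma adjusted p = 0.00204).

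Among 8 genes listed as dimer partners and related factors, 1 rose and 2 fell from mESC to NPC, and 1 rose and 0 fell from NPC to NC. The shares of all tested genes were 26.0% and 14.0% in the first step and 15.2% and 10.1% in the second. Cebpg, a stable partner of ATF4, rose from 15.9 and 14.2 TPM to 28.3 and 30.0 TPM (log2 0.91, SE 0.20, limma adjusted p = 0.0113) and was at 27.3 and 36.6 TPM in NC. Nupr1, a small stress-induced regulator counted in this list, was at 36.9 and 12.1 TPM in mESC, 1.30 TPM and listed at 0 in NPC, and 9.44 and 35.7 TPM in NC. Nupr1 fell by 3.88 on the log2 scale into NPC (limma adjusted p = 0.00807) and rose by 3.69 into NC (limma adjusted p = 0.0171). Atf3 was at 7.77 and 2.39 TPM in mESC, 6.55 and 3.90 TPM in NPC, and 4.59 and 18.4 TPM in NC, and Cebpb at 9.79 and 7.95, 4.23 and 4.06, and 3.25 and 9.15 TPM, neither past the test. Jdp2 was not called either, and Nfe2l2, the gene of NRF2, was lower in NC than in mESC (log2 -1.28, SE 0.28, limma adjusted p = 0.00799).

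Neighbouring stress programmes were read in the same libraries. For the ATF6 and XBP1 branch, a list of 17 genes, 16 were higher in mESC replicate 1 and 13 in NC replicate 2. The median log2 differences were 0.34 and 0.17, and 0 of the 17 differed 2-fold within any stage. The direction of the split was thus also present in this list, most of all in mESC. Hspa5 (BiP), the standard marker of endoplasmic reticulum stress, was at 336 and 335 TPM in mESC, 438 and 372 TPM in NPC, and 359 and 420 TPM in NC, with no contrast past the test. Xbp1 was at 95.5 and 72.2 TPM in mESC, 59.1 and 52.7 TPM in NPC, and 61.2 and 76.0 TPM in NC, and was not called. Of the 17, 1 rose and 4 fell from mESC to NPC, beside 26.0% and 14.0% of all tested genes. From mESC to NC 2 rose and 6 fell, beside 37.8% and 22.1%. Creld2 led the falls into NPC (log2 -0.90, limma adjusted p = 0.0215), and Sel1l rose in NC (log2 1.26, limma adjusted p = 0.00368). Hsp90b1 was lower in NC (log2 -0.63, limma adjusted p = 0.00868) and Calr was not called.

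Among 9 mitochondrial chaperones and proteases, 6 fell from mESC to NPC and 7 from mESC to NC, beside 14.0% and 22.1% of all genes, and 0 rose. Hspa9 led the first step (log2 -0.94, SE 0.20, limma adjusted p = 0.0101), Hspe1 was lower in NC than in mESC by a log2 of -1.58 (SE 0.18, limma adjusted p = 0.000492), and Hspd1 by -1.52 (SE 0.21, limma adjusted p = 0.00108). None of the 9 differed 2-fold within a stage. NRF2 targets, 6 in all, had 4 lower and 0 higher in NPC and in NC against mESC. Of all tested genes, 14.0% were lower and 26.0% higher in NPC, and 22.1% and 37.8% in NC. All 6 NRF2 targets were higher in NC replicate 2 (median log2 0.76, 2 at least 2-fold). The NC difference between libraries was thus also present in this list, while 2 of 6 were higher in mESC replicate 1. Nqo1 fell by 3.78 on the log2 scale into NPC (SE 0.43, limma adjusted p = 0.000916); Hmox1 was at 11.6 and 43.8 TPM in the NC libraries, and Gclc and Txnrd1 at 35.5 to 71.8 and 136 to 210 TPM.

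Among 8 sestrin and p53 genes, 5 rose and 0 fell from mESC to NC, beside 37.8% of all genes called higher, and 4 rose and 0 fell from NPC to NC, beside 15.2%. Cdkn1a, the cell cycle inhibitor p21, was at 89.0 and 80.8 TPM in mESC, 67.6 and 76.6 TPM in NPC, and 268 and 471 TPM in NC (NC against NPC log2 2.29, SE 0.26, limma adjusted p = 0.00371). Ccng1 rose likewise (log2 0.98, limma adjusted p = 0.0206), and Mdm2 was not called. The paralogues of Sesn2 were called where Sesn2 was not: Sesn3 rose from 13.0 and 13.9 TPM to 54.6 and 47.0 TPM in NPC (log2 1.84, SE 0.22, limma adjusted p = 0.00123), and Sesn1 was higher in NC than in mESC (log2 1.16, SE 0.37, limma adjusted p = 0.0311). In NC both Sesn1 (38.0 and 16.7 TPM) and Sesn3 (68.5 and 45.4 TPM) were highest in replicate 1, the library that was lower for Sesn2.

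Trib1 and Trib2, paralogues of Trib3, rose from mESC to NPC where Trib3 fell. Trib2 rose from 5.97 and 6.80 TPM in mESC to 28.0 and 28.4 TPM in NPC and 83.9 and 73.1 TPM in NC (NC against mESC log2 3.43, SE 0.17, limma adjusted p = 2.7e-05). Trib1 rose from 10.4 and 7.87 TPM to 29.7 and 27.1 TPM in NPC (log2 1.55, SE 0.28, limma adjusted p = 0.00606). Chac2, the constitutive relative of Chac1, stayed between 4.01 and 9.11 TPM, with no contrast past the test. Of the 6 paralogues, 5 differed less than 2-fold within every stage; Sesn1 was over 2-fold lower in NC replicate 2. The difference between a member and its paralogue was not tested.

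Genes with the closest profile to a member were taken by the smallest root mean square distance of centred log2(TPM + 1) over the 6 libraries, among 13702 genes with a mean of at least 5 TPM. For Atf4 they were Cd68 (distance 0.160), Tnfrsf10b (0.161) and Cars (0.178), a lysosomal protein, a death receptor and the cysteine tRNA synthetase. For Asns they were Dpp7 (0.122), Slc3a2 (0.164) and Gm24888 (0.169). For Phgdh they were Tmem237 (0.0427), Rwdd3 (0.0452) and Oxa1l (0.0494). These values describe likeness across 6 libraries that fall into 3 stages and carry no test.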

How the data were processed

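RNA-seq libraries (Ion Proton) were made from RNA that had been poly(A)-enriched and depleted of ribosomal RNA, per the labels' protocols. The submitters' processing notes name cutadapt 3.4, STAR 2.7.9a, StringTie 2.1.5 and mm10; neither the annotation release nor the strand setting is stated there. The authors deposited 1 StringTie gene table per library, with coverage, FPKM and TPM. Values of the deposited TPM column were used for levels and tests, the deposited FPKM column for an alternative, and deposited coverage over FPKM, a constant for 38.3% to 39.7% of genes (tolerance 0.1%), for depth in aligned bases. Transcripts of the mitochondrial genome (37 genes) had 0 TPM in every library.

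Lines of 1 gene ID were summed. Genes with at least 1 TPM in 2 libraries were tested on log2(TPM + 1) with limma 3.58.1 (R 4.3.3; lmFit, eBayes with trend, 1 coefficient per stage over all 6 libraries, 3 residual degrees of freedom, two-sided, Benjamini-Hochberg over 20232 genes, threshold 0.05). Fold changes are on that scale, which understates low genes. A permutation test of 2 against 2 libraries cannot reach the threshold and was not used. The scripts were tested on simulated data.

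The members and the 11 wider lists were chosen with earlier results of these data known. Named genes are the 10 members, the 3 most abundant and the most changed called gene per contrast of each list, 18 regulators and paralogues, and the 3 closest profiles. Each contrast was repeated under 17 alternatives. Copies were sought with BLAST 2.17.0.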

Additional observations from a re-analysis of the deposited data

How the results depend on the processing

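The counts of members called rest on 2 libraries a stage and moved with most choices. NPC against mESC had 0 higher, and 1 with quantile normalization (Phgdh) or with only the 2 groups fitted (Atf5); its 2 lower became 1 with a pseudocount of 0.1 or no trend, 0 with no filter, and 3, with Atf4 added, with FPKM, median-of-ratios scaling or only the 2 groups. The 1 higher of NC against NPC became 0 with pseudocounts of 0.1 and 5, no filter, FPKM, quantile normalization, no trend and only the 2 groups fitted; its count of 0 lower held in all 17 alternatives. NC against mESC had 2 higher, and 1 with no filter, quantile normalization or only the 2 groups; its 1 lower became 0 with no filter or only the 2 groups, 2 with a filter of 5 TPM, and 3 with FPKM or median-of-ratios scaling, and under quantile normalization the 1 was Trib3 (limma adjusted p = 0.0471) in place of Asns (0.0678). Leaving out 1 library in turn, which leaves 2 residual degrees of freedom, gave 0 to 1 higher and 0 to 3 lower in NPC against mESC, 0 to 3 higher in NC against NPC, and 0 to 3 higher and 0 to 5 lower in NC against mESC. The 5 were Psat1, Shmt2, Asns, Trib3 and Atf4, without NC replicate 2. Over all genes, the 5123 calls of NC against NPC fell to 309 without NPC replicate 1 and 1276 without NPC replicate 2.

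The labels do not say whether the replicate numbers pair the libraries. Over 20232 genes the difference of replicate 1 from 2 correlated at 0.05 between mESC and NPC. It correlated at -0.07 between NPC and NC and at -0.08 between mESC and NC. Such low values show no strong shared replicate effect, but they cannot tell whether libraries of the same number shared a culture. A replicate block took the count of NC against NPC from 1 higher to 0 (Atf5) and changed no other count of members.

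For single members, 22 of 510 values changed sign, none of them a call. In NC against mESC, Chac1 (0.01) became -0.0040 with a pseudocount of 5, -0.25 with FPKM, -0.30 with median-of-ratios scaling and -0.40 with quantile normalization; Sesn2 (0.13) became -0.14, -0.19 and -0.016 with the last 3, and Phgdh (0.25) -0.032 with FPKM and -0.074 with median-of-ratios scaling. With 1 library left out, values reached from -0.063 to 1.06 for Ddit3, -2.05 to 0.31 for Chac1 and -0.56 to 0.13 for Shmt2 in NPC against mESC; -0.68 to 2.17 for Trib3, -0.12 to 1.89 for Chac1, -0.13 to 1.04 for Sesn2, -0.17 to 0.89 for Asns, -0.56 to 0.057 for Psat1 and -0.85 to 0.19 for Shmt2 in NC against NPC; and -0.88 to 0.33 for Atf4, -1.17 to 1.20 for Chac1 and -0.46 to 0.71 for Sesn2 in NC against mESC. Where not named above, the cause was not tested. The tables hold no read counts per gene, so depth limits per gene are unknown.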
